A study of Mus musculus with 9 samples.

Results

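Mouse D3 cells, an embryonic stem (ES) cell line, were made to overexpress LAMP2A and were then sequenced with and without DM-αKG. The comparison set 3 libraries of LAMP2A+DM-αKG, given DM-αKG at 4 mM for 72 h, against 3 libraries of LAMP2A cells without it, out of 9 libraries in all. The other 3 libraries came from cells stably carrying the empty pCDH vector (VT) and are quoted as a background level. Culture was free of feeder cells, on gelatin-coated plates with serum and the cytokine LIF in the medium. The labels name no vehicle for the cells without DM-αKG, and do not say whether a line was 1 clone. Separate cultures behind the 3 libraries are not stated either, so p-values speak only of the spread among these libraries, which may be technical. Vector cells given DM-αKG were not analysed here, so whether the effect depends on LAMP2A was not tested.

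In chaperone-mediated autophagy, proteins are unfolded and threaded into the lysosome, and LAMP2A, 1 of the splice forms of LAMP2, is the receptor for them. DM-αKG, dimethyl α-ketoglutarate, is a cell-permeable ester of α-ketoglutarate (2-oxoglutarate). That metabolite is an intermediate of the TCA cycle, an amino group acceptor in amino acid metabolism, and the co-substrate of a family of dioxygenases that includes the TET enzymes of DNA, the Jumonji histone demethylases, the hydroxylases that mark hypoxia-inducible factor (HIF), and the collagen hydroxylases. In ES cells it is known for its link to the naive pluripotent state.

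The 6 libraries held 23636074 to 32809875 counted reads. Levels are given as CPM, read counts scaled to library size with TMM normalisation, and are not corrected for gene length. Lamp2 (GRCm38 chromosome X, 38399647–38456460) was checked first. It stood at 407, 403 and 403 CPM in the LAMP2A libraries, 99.3, 95.4 and 96.9 CPM with DM-αKG and 57.5, 56.9 and 60.0 CPM in VT. The LAMP2A libraries without DM-αKG were the highest. In the libraries with DM-αKG, which are labelled LAMP2A too, Lamp2 was 4.16-fold lower (log2 fold change -2.06, SE 0.0307, adjusted p = 3.98e-35), though still above every VT library. Counts per gene hold reads of the transgene and of the cells' own gene together. The lower Lamp2 level came with DM-αKG in all 3 libraries, so the 2 cannot be told apart in any result that follows. All 10 ES cell markers were counted in every group. Their summed level was 1860 to 1863 CPM in LAMP2A libraries, 6353 to 6397 CPM with DM-αKG and 7502 to 7974 CPM in VT. In such bulk samples fewer cells of a type and less RNA per cell cannot be told apart.

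Most of the transcriptome moved. Of 14513 genes tested, 12081 (83.2%) passed edgeR's quasi-likelihood test at an adjusted p of 0.05. With DM-αKG 5967 (41.1%) were higher and 6114 (42.1%) lower. The spread between replicates was small (biological coefficient of variation 2.74%), so that 6023 of these genes had changed by less than 1.5-fold. A stricter test asked whether a change was larger than 2-fold. It was passed by 850 genes (5.86%) that rose and 2170 (15.0%) that fell. The fall reached further than the rise. Past this test 804 genes were over 8-fold lower and 89 over 8-fold higher, and over 100-fold changes numbered 111 and 0. Some of these ratios rest on few reads, as for C1qtnf3 with 2776 in LAMP2A and 1 with DM-αKG, so their size is loosely set. The genes over 2-fold lower took 13.2% of counted reads in each LAMP2A library and 3.10 to 3.14% in each library with DM-αKG, while those over 2-fold higher took 1.92 to 1.93% and 5.72 to 5.75%. Because these genes were picked by the same contrast, the shares only describe its size. The 3 libraries of 1 group did not overlap with those of the other for 85.5% of genes. List counts below are to be read beside these shares of all genes: 41.1% higher, 42.1% lower, and past the 2-fold test 5.86% and 15.0%.

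**Figure D1:**
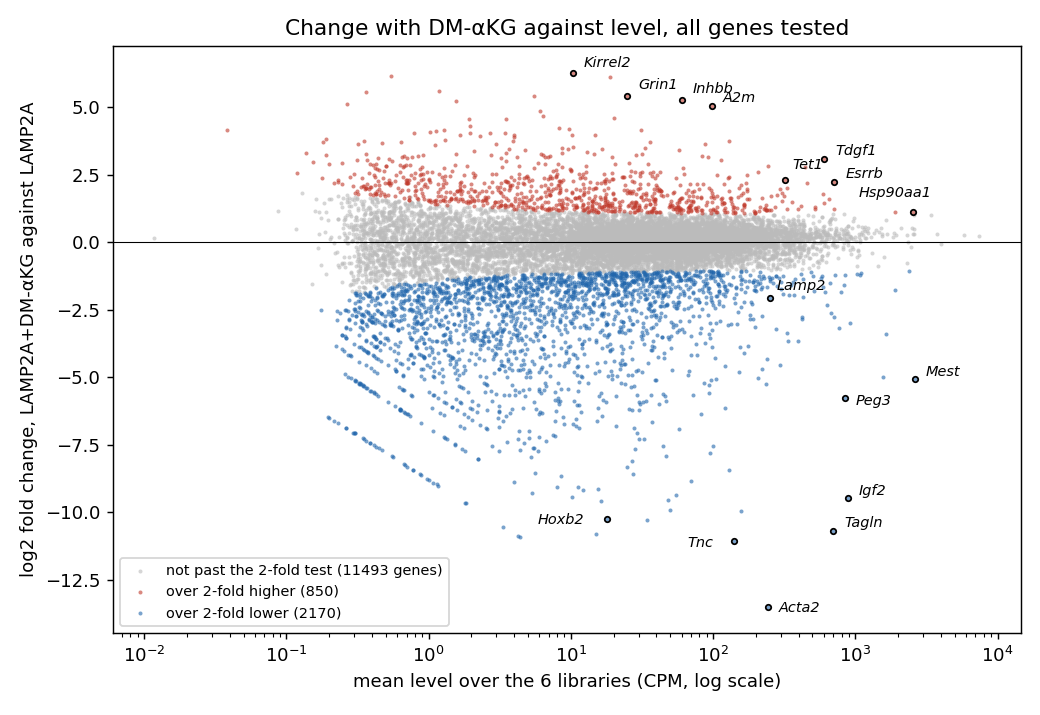
Log2 fold change with DM-αKG (vertical axis) against the mean level over the 6 libraries in CPM (horizontal axis, log scale) for the 14513 genes tested, each point a gene. Genes over 2-fold higher (850, red) stay below a log2 fold change of 6.3, whereas those over 2-fold lower (2170, blue) reach much further down.

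The upper end, taken over genes averaging 5 CPM or more, held genes with 5.73 CPM or less on average in LAMP2A cells. Kirrel2 and Nphs1, neighbouring genes on chromosome 7 (from 30447766 and 30458207) for adhesion proteins of the podocyte slit diaphragm, had the highest log2 fold changes, 6.27 and 6.12. Inhbb, a subunit of activin and inhibin, stood at 3.01, 3.14 and 3.10 CPM without DM-αKG and 118, 117 and 117 CPM with it. A2m, the protease inhibitor alpha-2-macroglobulin, went from 5.90, 5.84 and 5.45 CPM to 188, 189 and 195 CPM, above its VT values of 58.6, 55.3 and 57.1 CPM. Grin1, an NMDA receptor subunit, went from 1.03, 1.30 and 1.08 to 50.8, 47.1 and 48.6 CPM against 11.3 ± 1.62 CPM in VT (mean and SD, n = 3). That the groups did not overlap was part of the rule that picked these 3 genes. For A2m and Grin1 the DM-αKG libraries were also the highest of the 9. The others of the 10 highest were Foxn4, Ly6g6e, Pou2f3, Igsf21 and Nkx6-3, with log2 fold changes of 5.41, 4.85, 4.67, 4.58 and 4.22. The 10 lowest were Acta2, Tnc, C1qtnf3, Tagln, Cyp1b1, Hoxb2, Acta1, Col12a1, Ccdc80 and Prss23. Cyp1b1, a cytochrome P450 of retinoid and steroid metabolism, went from 68.1, 67.6 and 69.5 to 0.168, 0 and 0 CPM, and the serine protease gene Prss23 from 96.2 to 0.132 CPM. C1qtnf3, a secreted relative of complement C1q, had 32.6, 28.8 and 29.0 CPM and a single read with DM-αKG, so that its ratio of 2411.7 is loosely set (counting interval 432 to 95289).

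Ranked by CPM instead, the genes over 2-fold higher were led by Hsp90aa1, a cytosolic chaperone, at 1622, 1613 and 1582 CPM without and 3464, 3586 and 3415 CPM with DM-αKG. The lactate dehydrogenase gene Ldha, the nuclear receptor gene Esrrb and the mismatch repair gene Msh6 came next, 2.18-fold, 4.66-fold and 2.32-fold higher. Among the genes over 2-fold lower, the largest CPM belonged to Mest, an imprinted gene, at 5133, 5115 and 5114 CPM without and 153, 153 and 149 CPM with DM-αKG. Actb, a cytoplasmic actin often used as a reference gene, came next and fell 2.13-fold, from 3228, 3282 and 3287 to 1543, 1538 and 1521 CPM. The filamin gene Flna, whose product cross-links actin, fell 3.40-fold and the non-muscle myosin gene Myh9 2.31-fold. Tpm1, a tropomyosin of actin filaments, went from 3090.3, 3022 and 3023 to 96.6, 97.5 and 95.8 CPM.

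The dioxygenases that use 2-oxoglutarate did not move as 1 group. Tet1 and Tet2, which oxidise 5-methylcytosine in ES cells, rose, and Tet3, which is known from the zygote and from differentiated cells, fell. Tet1 (chromosome 10) stood at 109, 111 and 107 CPM in LAMP2A and 532, 524 and 539 CPM with DM-αKG, a 4.89-fold rise (log2 fold change 2.29, SE 0.05). Tet2 went from 73.4, 77.0 and 71.4 to 278, 263 and 278 CPM and stayed below its VT values of 447, 374 and 444 CPM. Tet3 went from 84.1, 84.4 and 85.2 to 31.4, 30.9 and 32.7 CPM. No library of one group reached the range of the other for any of the 3, as held for 85.5% of all genes. Each change was over 2-fold, a test that 20.8% of all genes passed in either direction. On the writing side of the same mark, the de novo methyltransferase gene Dnmt3a fell 3.66-fold, from 111, 114 and 114 to 31.9, 31.7 and 29.2 CPM, and Dnmt3b fell less (log2 fold change -0.43, SE 0.0339). The maintenance enzyme gene Dnmt1 (log2 fold change 0.05, adjusted p = 0.146) and the cofactor gene Dnmt3l (0.02, adjusted p = 0.548) did not pass, and Uhrf1, which guides Dnmt1 to replicated DNA, rose slightly (0.23, SE 0.0311). Dnmt1 passed when the fit held the 6 compared libraries alone (log2 fold change 0.049, adjusted p = 0.00814).

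Of 17 Jumonji histone demethylases 16 were tested, with 10 higher and 4 lower, a share of 62.5% higher beside 41.1% of all genes. Their median log2 fold change was 0.19, against -0.001 over all genes. Kdm4b and Kdm4c, demethylases of H3K9 and H3K36, rose 1.91-fold and 1.98-fold, Kdm4c from 58.5, 57.1 and 58.7 to 113, 115 and 117 CPM. Kdm2b, which brings a Polycomb complex to CpG islands, was the single member past the 2-fold test and fell from 148, 152 and 153 to 69.4, 66.2 and 69.5 CPM, while Phf2 and Kdm5a fell by 0.71 and 0.55 on the log2 scale. Other Jumonji and AlkB dioxygenases were higher in 15 and lower in 3 of 23 cases, none of them past the 2-fold test. They ranged from Asph, an aspartyl hydroxylase (-0.37), to Alkbh7, a mitochondrial enzyme (0.93). The RNA demethylase gene Fto fell slightly (-0.17, SE 0.0345).

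Of 10 oxygen sensing genes 5 were higher and 5 lower, near the shares of all genes, and none passed the 2-fold test. Egln3 and P4htm, prolyl hydroxylases, rose 1.65-fold and 1.84-fold, and Egln1 rose slightly (0.15). Hif1an, the asparaginyl hydroxylase of HIF, went from 136 ± 2.13 to 98.6 ± 0.818 CPM (SD, n = 3), and Hif1a from 184 ± 2.09 to 146 ± 3.98 CPM. Epas1, the HIF-2 alpha gene, went the other way, from 55.7 ± 1.38 to 87.7 ± 1.80 CPM. Collagen hydroxylases and their partners were mostly lower, 9 of 13. P3h2 and P4ha3 fell from 15.1 and 10.2 CPM to 0.316 and 0.472 CPM and P3h4 fell 3.93-fold, whereas Colgalt1, which adds galactose to hydroxylysine, rose (log2 fold change 0.36).

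Enzymes that make or consume 2-oxoglutarate, with the rest of the TCA cycle, were higher in 33 of 37 cases and lower in 2 (median log2 fold change 0.47). The share, 89.2%, stood beside 41.1% of all genes. Psat1 and Gpt2, aminotransferases that release 2-oxoglutarate from glutamate, had 157, 159 and 154 and 39.7, 41.6 and 41.3 CPM without DM-αKG. With it they had 381, 388 and 387 and 95.9, 98.6 and 97.9 CPM. Got1, the cytosolic aspartate aminotransferase, rose 2.29-fold. For these genes every library with DM-αKG lay above every other library of LAMP2A cells, and groups did not overlap for 85.5% of all genes. Psat1 and Gpt2 also lay above VT, at 327 and 65.3 CPM on average. Oat, ornithine aminotransferase, fell 1.56-fold. Dlst, a subunit of the 2-oxoglutarate dehydrogenase complex, fell slightly (log2 fold change -0.08, SE 0.0291), a call that was lost without LAMP2A replicate 3 (adjusted p = 0.0639) or LAMP2A+DM-αKG replicate 3 (adjusted p = 0.0747).

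Carriers of the mitochondrial inner membrane (Slc25 genes) were divided, 22 higher and 11 lower of 43 tested (51.2% and 25.6%). Slc25a21, which carries oxodicarboxylates related to 2-oxoglutarate, had 1.64, 1.96 and 1.53 CPM in LAMP2A and 0.0841, 0 and 0.0998 CPM with DM-αKG, and was hardly counted in VT. Slc25a24, an ATP-magnesium and phosphate carrier, fell 12.5-fold, while Slc25a36, a pyrimidine nucleotide carrier, and the ADP/ATP carrier gene Slc25a5 rose 1.97-fold and 1.76-fold.

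Genes of respiration and of the mitochondrial ribosome rose together by small amounts. Complex I subunits were higher in 32 of 36 (median log2 fold change 0.44), subunits of complexes II to IV in 24 of 25 (0.59) and ATP synthase subunits in 14 of 16 (0.45). Uqcrq, a complex III subunit, was the single one past the 2-fold test, from 59.1, 58.9 and 58.1 to 134, 133 and 129.7 CPM. Ndufs1, the largest subunit of complex I, and Cox5a of complex IV rose 1.56-fold and 1.67-fold, whereas Ndufa11 and Cox4i1 fell (-0.34 and -0.16). On average Ndufs1 and Cox5a had 240 and 342 CPM in VT, 137 and 182 CPM in LAMP2A and 213 and 303 CPM with DM-αKG. Of 76 mitochondrial ribosomal proteins 66 were higher and 6 lower, between -0.40 for Mrps6 and 0.88, with Mrpl35 at 0.84.

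The machinery of growth shifted the same way. Cytosolic ribosomal proteins were higher in 81 of 83 (median 0.33), none lower, with Rps2 at 0.61 and Rps18 at 0.54. Many ribosomal protein genes have near-identical pseudogenes, so single values are less certain. Aminoacyl-tRNA synthetases were higher in 33 of 36 and none was lower (median 0.52). The alanyl-tRNA synthetase gene Aars rose 1.98-fold and Aars2, its mitochondrial counterpart, 2.13-fold. Genes of DNA replication and mitosis were higher in 26 of 27, from 0.04 to 0.76, with the mitotic kinase genes Aurka and Bub1b at 1.69-fold and 1.69-fold and Rrm2, a ribonucleotide reductase subunit, at 1.65-fold. No member of the ribosomal or replication lists passed the 2-fold test. On average Rps2, Aars and Bub1b had 972, 568 and 427 CPM in VT and 703, 310 and 221 CPM in LAMP2A. With DM-αKG these 3 genes had 1072, 614 and 374 CPM. The genes over 2-fold lower held 13.2% of reads in LAMP2A and 3.10 to 3.14% with DM-αKG, and the part of this change in these small shifts was not tested. With DESeq2 size factors in the same fit the median over all genes moved from -0.001 to -0.013.

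**Figure D2:**
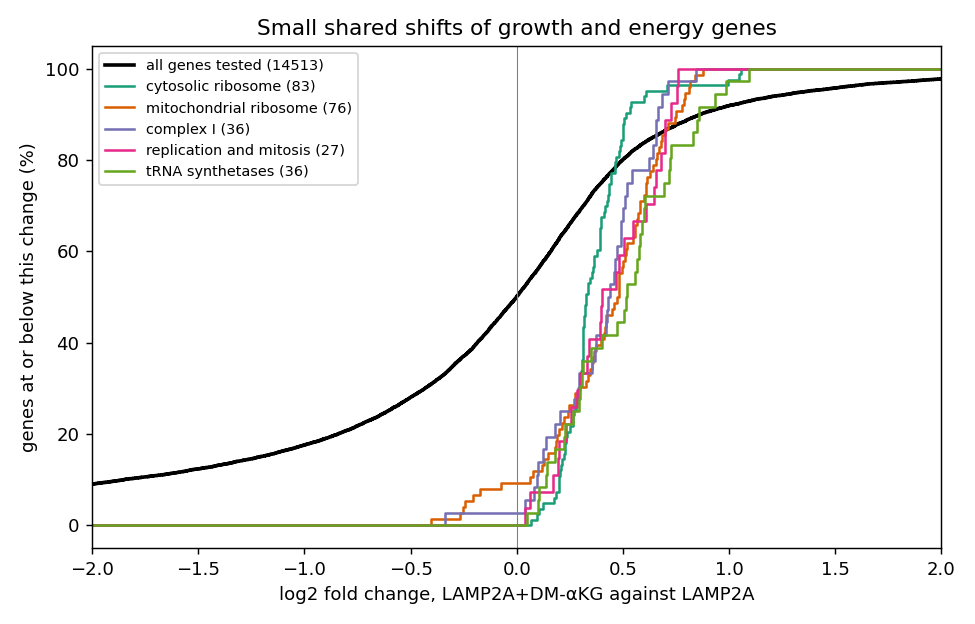
Cumulative share of genes (vertical axis, percent) at or below each log2 fold change with DM-αKG (horizontal axis) for all 14513 genes tested and for 5 gene lists, with the number of genes in brackets. The lists rise steeply between about 0 and 1, with medians of 0.33 to 0.52, while the curve of all genes crosses 50% near 0.

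Glycolysis and lactate genes were higher in 22 of 27 cases, 9 of them past the 2-fold test (33.3%, beside 5.86% of all genes). Pfkp, a phosphofructokinase, had the smallest p and went from 129.9, 131 and 131 to 528, 526 and 532 CPM against 404, 404 and 396 CPM in VT. Hk2, hexokinase 2, went from 297, 302 and 301 to 748, 733 and 751 CPM. Ldhb, the second lactate dehydrogenase subunit, rose 2.60-fold. For all 3 the groups did not overlap, as held for 85.5% of all genes, and Pfkp and Ldhb reached levels above those of VT. The muscle and neuron enolases Eno3 and Eno2 fell 2.18-fold and 2.07-fold and the muscle phosphofructokinase gene Pfkm fell by 0.37 on the log2 scale. HIF targets outside glycolysis had 13 members higher and 6 lower of 22 (59.1% and 27.3%, beside 41.1% and 42.1% of all genes). Bhlhe40, a transcriptional repressor, went from 43.2, 43.2 and 45.6 to 154, 150.4 and 155 CPM and the adenylate kinase gene Ak4 from 64.0, 64.2 and 65.8 to 193, 203 and 197 CPM, both above VT (72.2 and 117 CPM).

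The core letters of the HIF response element, ACGTG, were searched on both strands of the 250 bases before the start of each gene in the RefSeq promoter table (GRCm38.p6). They were found in 13 of 27 glycolysis and lactate genes with an entry (48.1%), in 12 of 16 other HIF targets (75%) and in 18.5% of all 27025 genes. Known HIF targets make up the latter list, so a high share there was built in. Holders of the letters moved both ways. Hk2 and Ak4 rose, and P4ha1, Ddit4 and Pfkm fell (log2 fold changes -0.58, -0.36 and -0.37). Whether the letters went with the change was not tested. Ldha and Pgk1 are shown because their promoters are textbook examples and both genes were over 2-fold higher (2617, 2601 and 2617 and 609, 594 and 583 CPM with DM-αKG against 1181, 1197 and 1222 and 236, 239.6 and 239 CPM without). Capitals mark ACGTG on either strand, and where the letters read on both strands the matches overlap.
Ldha, chr7:46845654-46845803, plus strand: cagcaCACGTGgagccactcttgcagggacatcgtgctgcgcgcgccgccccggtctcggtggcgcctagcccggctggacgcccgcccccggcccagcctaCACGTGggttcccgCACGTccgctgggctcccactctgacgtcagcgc
Pgk1, chrX:106186940-106187099, plus strand: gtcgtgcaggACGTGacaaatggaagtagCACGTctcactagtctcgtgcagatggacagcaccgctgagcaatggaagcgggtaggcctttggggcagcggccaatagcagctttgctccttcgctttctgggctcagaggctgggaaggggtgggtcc
A match to these letters is a description and not a measured binding site.

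Genes of amino acid metabolism were higher as well. Enzymes of serine synthesis and folate metabolism were higher in 16 of 17 (5 past the 2-fold test). Shmt2, mitochondrial serine hydroxymethyltransferase, stood at 128, 133 and 134 CPM without DM-αKG, 434, 433 and 438 CPM with it and 316, 315 and 305 CPM in VT. Mthfd2, the next enzyme of mitochondrial folate metabolism, went from 50.3, 50.4 and 51.6 to 165, 165 and 162 CPM. In both genes DM-αKG libraries were the highest of the 9, and Mthfd2l alone in the list fell (-0.71, SE 0.132). Targets and regulators of ATF4, the transcription factor of the amino acid response, were higher in 13 and lower in 3 of 20. These shares were 65.0% and 15.0%, beside 41.1% and 42.1% of all genes. Trib3, a pseudokinase that feeds back on ATF4, went from 14.9, 16.6 and 15.9 to 61.2, 63.3 and 59.7 CPM, against 41.8, 42.6 and 40.6 CPM in VT. Atf3, Cebpb and Ddit4 fell, Atf3 by 2.90-fold. The ATF4 half-site letters TGATGNAA, on either strand of the same 250 bases, were found in 6 of 17 of these genes (35.3%) and in 3.91% of all genes. Atf3, which fell, is among the 6. Because the list was chosen as ATF4 targets and regulators, a high share was built in. Whether the letters went with the change was not tested.

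Amino acid transporters had 8 members higher and 9 lower of 23, near the background of 41.1% and 42.1% of all genes. Slc7a5, which imports large neutral amino acids, went from 154, 154 and 155 to 358, 347 and 353 CPM, above VT at 273 ± 11.2 CPM, and the cationic amino acid transporter genes Slc7a3 and Slc7a1 rose 2.12-fold and 2.00-fold. Slc38a4, a transporter gene that is imprinted in mice, fell 2.18-fold. Antioxidant and glutathione genes were higher in 19 of 21, with mitochondrial superoxide dismutase Sod2 up 2.73-fold, Nqo1 2.60-fold and glutathione reductase Gsr 2.28-fold. The peroxiredoxin gene Prdx6 fell slightly (-0.21). Of sterol and fatty acid synthesis genes 16 were higher and 7 lower of 24, with phosphomevalonate kinase Pmvk up 2.87-fold and the desaturase gene Scd2 down 1.45-fold.

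Most pluripotency genes rose. Of the naive factors 15 of 16 tested were higher, 14 past the 2-fold test (87.5%, beside 5.86% of all genes). Esrrb, an orphan nuclear receptor of the naive state, stood at 248, 250.5 and 257 CPM in LAMP2A and 1178, 1163 and 1179.5 CPM with DM-αKG, below VT at 1536, 1459 and 1449.7 CPM. Tcl1, an activator of AKT, went from 9.61, 10.5 and 9.52 to 107, 104 and 103 CPM, and Klf4 from 58.9, 57.6 and 57.2 to 356, 356 and 349 CPM. Tfe3, which is also a lysosomal regulator, was the exception among the naive factors and fell (-0.34, SE 0.0346). In the core list 11 of 14 rose. Tdgf1, the Nodal co-receptor Cripto, went from 129, 127 and 127 to 1081, 1085 and 1089.5 CPM, and VT had 1059, 1118 and 1078 CPM. The lower members were RNA-binding proteins of the let-7 pathway, Lin28a (4.24-fold), Lin28b (2.13-fold) and Trim71 (1.30-fold). Of the formative and primed genes 12 of 17 fell. The ETS factor gene Etv4, an effector of FGF signalling, rose among them, from 17.6, 19.8 and 18.6 to 169, 162 and 165 CPM.

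**Figure D3:**
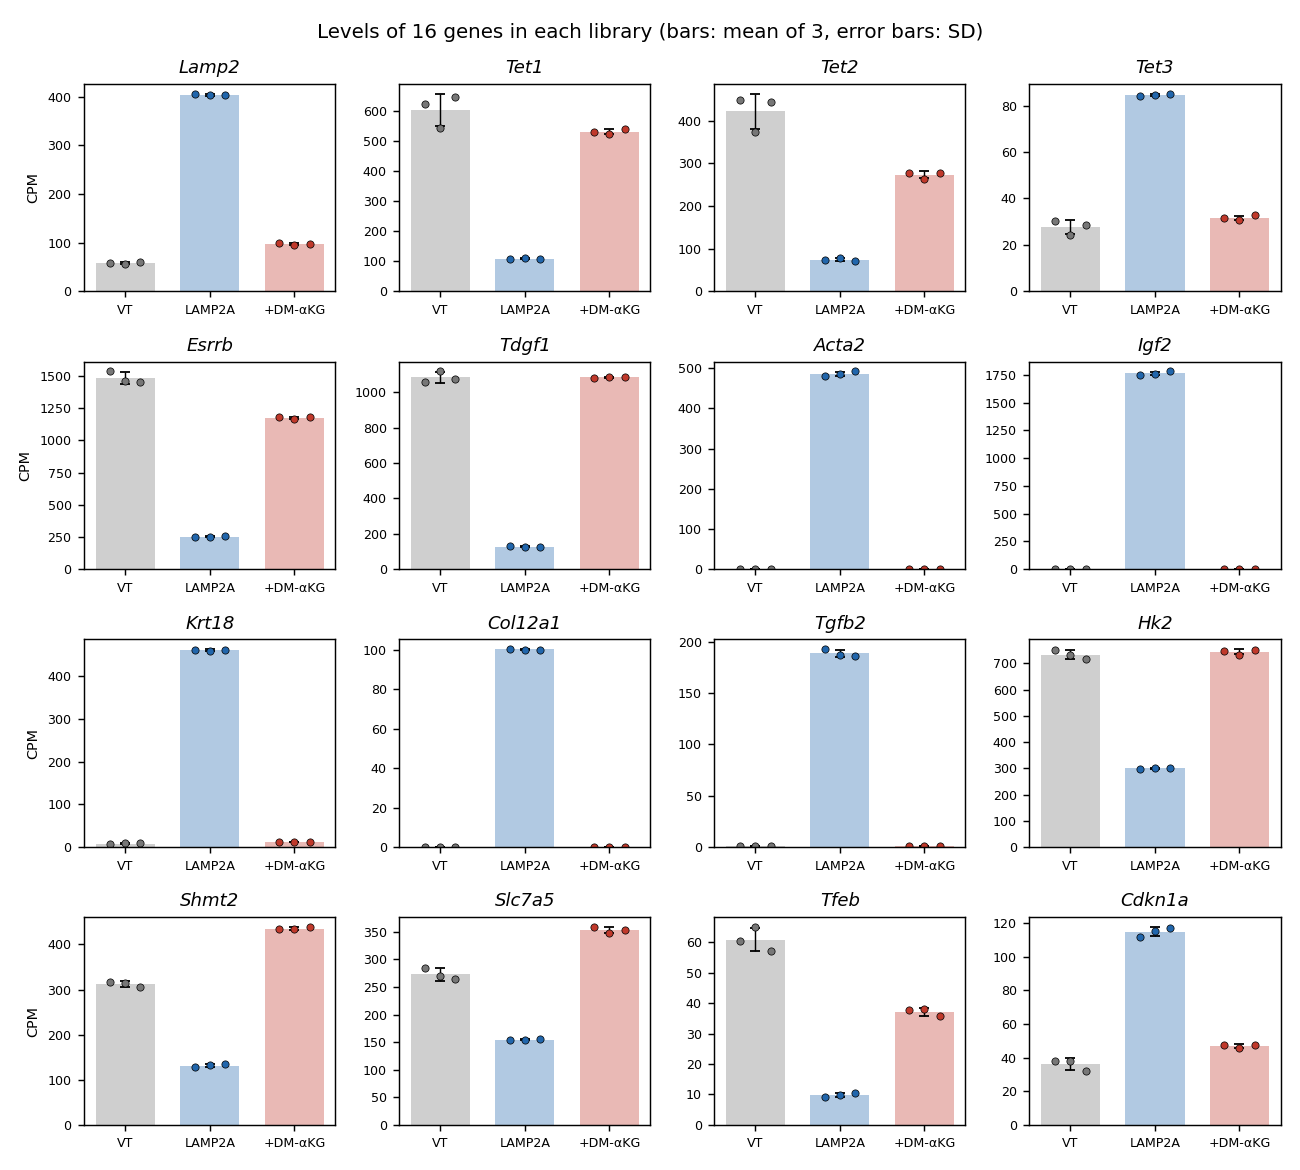
Levels in CPM (vertical axes, each from 0) of 16 genes in the VT, LAMP2A and LAMP2A+DM-αKG libraries. Points are single libraries, bars the mean of 3 and error bars the SD. For each gene the LAMP2A and LAMP2A+DM-αKG points do not overlap, as held for 85.5% of all genes tested.

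Markers of other cell types did not all move the same way. The 17 fibroblast and feeder cell markers summed to 387 to 394 CPM in LAMP2A libraries, 68.2 to 73.7 CPM with DM-αKG and 55.6 to 59.6 CPM in VT. Of the 13 tested 12 were lower (92.3%, beside 42.1% of all genes), with Col1a1 from 58.8, 60.3 and 58.3 to 1.47, 0.732 and 0.765 CPM. Of the 17, 2 had no read in LAMP2A. Skeletal and cardiac muscle markers, 12 in all, summed to 101 to 103 CPM, 31.5 to 35.4 CPM and 46.3 to 58.0 CPM in the same order of groups. Of the 8 tested 7 were lower (87.5%). Members hardly counted in VT and with DM-αKG, such as Tnnt3 with 1 and 2 reads, passed the filter on low counts only through LAMP2A. They could only be lower, in this list and among the fibroblast markers, so for them the counts support nothing more. Des, at 49.0 CPM in LAMP2A, fell 2.69-fold, and Myh7 31.5-fold, to 0.778 ± 0.786 CPM. Ttn did not pass (9.21 CPM in LAMP2A and 11.4 CPM with DM-αKG). The sums of the 10 endothelial markers differed less, at 96.4 to 101 CPM in LAMP2A, 102 to 105 CPM with DM-αKG and 113 to 118 CPM in VT. These sums hold changes in both directions. Of the 9 tested 2 were higher and 5 lower (22.2% and 55.6%, beside 41.1% and 42.1% of all genes). Flt1 and Kdr fell 30.1-fold and 7.58-fold. Pecam1, which ES cells also express, rose 3.34-fold, from 19.9 to 66.5 CPM on average, and Esam rose 2.98-fold. The 10 blood markers summed to 12.0 to 13.1 CPM, 16.5 to 17.8 CPM and 30.3 to 33.2 CPM in the same order. Of the 4 tested 3 were higher and 1 lower. Of the 10, 3 had no read in LAMP2A and 3 none with DM-αKG. The part of such cells in the lineage, contractile and matrix results that follow was not tested.

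Most lineage genes were lower. A gene that is silent in the other groups passed the filter on low counts only through the group in which it was read. Counts in these and the later lists, matrix genes included, therefore describe the genes that were measured and support nothing more. Endoderm genes were lower in 21 of 22, 18 past the 2-fold test (81.8%, beside 15.0% of all genes). Lrp2, the endocytic receptor megalin, had 457, 456 and 455 CPM without and 22.9, 21.2 and 23.4 CPM with DM-αKG, and its partner Cubn, cubilin, 206, 206 and 200.1 and 6.27, 5.66 and 6.39 CPM. With DM-αKG both lay below VT, at 32.8 and 8.36 CPM, while Sox7 rose 2.04-fold. Mesoderm genes were lower in 14 of 19, among them Hand1, from 57.3, 59.9 and 62.3 to 0.252, 0.193 and 0.632 CPM, and Meox1, 63.5-fold lower. Eomes, which also marks trophoblast, rose slightly (0.21). Trophoblast genes were lower in 14 and higher in 5 of 19, and Tead4 rose 2.66-fold. Neural genes were lower in 12 and higher in 4 of 16. Meis1 and Meis2, cofactors of Hox proteins, fell 60.2-fold and 50.6-fold, and the tubulin gene Tubb3 rose 1.93-fold.

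Hox genes, which pattern the body axis and are silent in ES cells, were lower in 26 of the 28 that passed the filter, with none higher. The other 11 of 39 had at most 42 reads over the 6 libraries. Hoxb2 had 35.8, 34.0 and 37.3 CPM in LAMP2A and 2 reads over the 3 DM-αKG libraries, 1420.4 times fewer per read sequenced (95% counting interval 393 to 11734). Hoxb4 went from 15.7, 16.2 and 15.8 to 0.126, 0.308 and 0.333 CPM. Hoxb9, further along the same cluster, went from 33.0, 32.3 and 30.9 to 4.25, 3.70 and 3.79 CPM, against 2.10, 2.81 and 2.05 CPM in VT. All simple epithelial keratins that were tested fell over 2-fold, led by Krt18 from 462, 459.9 and 463 to 12.5, 12.2 and 11.4 CPM. Krt19 fell the least, to 18.7 ± 1.20 CPM, above VT at 2.13 ± 0.156 CPM.

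Contractile and cytoskeletal genes fell nearly as a whole. Of 31 tested 30 were lower and 27 past the 2-fold test (87.1%, beside 15.0% of all genes). Members near 0 in VT and with DM-αKG, such as Acta2, passed the filter only through LAMP2A and could only be lower. For them the count supports nothing more. Acta2, smooth muscle actin (chromosome 19), had 479.7, 485 and 492 CPM in LAMP2A against 3 reads over the treated libraries, which is 12904-fold lower (counting interval 4415 to 62574). Tagln, transgelin, had 1396, 1395 and 1422 CPM and 1.05, 0.809 and 0.699 CPM. Acta1, skeletal muscle actin, went from 303, 318 and 317 to 0.505, 0.231 and 0.233 CPM. In VT the 3 genes were also near 0, at 0.0370, 1.19 and 0.207 CPM on average. Actin isoforms share much coding sequence, so that a part of their reads may be assigned to the wrong member. Csrp2, a LIM domain protein, was the single higher member (0.18, SE 0.0354).

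Many contractile genes carry a CArG box, the binding element of serum response factor (SRF), whose own gene holds 2. The box was found in the 250 bases before the start of 7 of 25 contractile genes with a promoter entry (28.0%) and of 1.62% of all 27025 genes. The 7 were Acta1, Actc1, Actg1, Cnn2, Myl9, Vcl and Srf, named for holding it. All 7 passed the 2-fold test, but so did 27 of the 31 contractile genes (87.1%). Acta2 and Tagln, with log2 fold changes of -13.5 and -10.7, were not among the 7. Whether the box went with the fall was not tested. Cnn2 (calponin 2), Myl9 (myosin light chain), Vcl (vinculin), Actg1 (cytoplasmic actin) and Srf had log2 fold changes of -3.85, -7.93, -1.74, -1.17 and -1.21. Actc1, cardiac actin, had 18.8, 21.1 and 21.1 CPM in LAMP2A against 2 reads in the treated libraries, or 808-fold lower (counting interval 223 to 6680). Shown are the 100 bases before the start of the 5 whose box lies there, with the box in capitals, 5′ to 3′ on the gene's strand (RefSeq, GRCm38.p6). The box is its own reverse in pattern, so that both strands give the same places.
Acta1, chr8:123894776-123894875, minus strand: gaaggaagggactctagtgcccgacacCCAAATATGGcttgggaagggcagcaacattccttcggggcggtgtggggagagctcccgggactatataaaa
Actc1, chr2:114052876-114052975, minus strand: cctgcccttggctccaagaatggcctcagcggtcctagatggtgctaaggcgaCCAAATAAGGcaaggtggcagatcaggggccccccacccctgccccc
Actg1, chr11:120348496-120348595, minus strand: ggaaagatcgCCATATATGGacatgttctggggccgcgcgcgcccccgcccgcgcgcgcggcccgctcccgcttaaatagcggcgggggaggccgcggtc
Cnn2, chr10:79988500-79988599, plus strand: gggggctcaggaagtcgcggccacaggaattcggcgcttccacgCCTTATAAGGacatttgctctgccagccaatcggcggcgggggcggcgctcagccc
Srf, chr17:46556163-46556262, minus strand: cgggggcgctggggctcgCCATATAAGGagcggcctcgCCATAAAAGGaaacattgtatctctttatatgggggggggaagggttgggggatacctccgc
The box lies 73 to 64 bases before the start in Acta1, 47 to 38 in Actc1, 90 to 81 in Actg1 and 56 to 47 in Cnn2. Srf itself went from 102, 101 and 108 to 44.7, 45.4 and 43.8 CPM. Binding of SRF was not measured.

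The extracellular matrix fell with the cytoskeleton. Collagens were lower in 29 of 35 tested (82.9%, beside 42.1% of all genes), 26 past the 2-fold test (74.3%, beside 15.0%). Col12a1, a collagen of stretched connective tissue, went from 100.2, 100.1 and 100.1 to 0.210, 0.0770 and 0.0333 CPM. Col18a1, a collagen of basement membranes, went from 1362, 1372 and 1399 to 153, 153 and 154 CPM, below VT at 202 ± 4.90 CPM. Col13a1 and Col5a3 rose 4.74-fold and 2.47-fold. Serpinh1, the collagen chaperone HSP47, fell 8.03-fold, from 1623 ± 18.4 to 202 ± 4.92 CPM. Laminin chains were lower in 10 of 11 (90.9%), but unequally. Lamb1 and Lamb2 fell 7.16-fold and 4.60-fold and Lamc1 2.25-fold. Lama1 and Lama5, the alpha chains of embryonic basement membranes, fell by 0.40 and 0.49 on the log2 scale, whereas Lama3 rose (0.49). Matrix glycoproteins were lower in 22 of 28 (78.6%). Tenascin C (Tnc), a glycoprotein of remodelled tissue, had 25785 reads over the 3 LAMP2A libraries and 10 over those with DM-αKG. Spp1, osteopontin, rose 3.02-fold. Matrix proteases and their inhibitors were lower in 18 of 21 (85.7%), Timp3 by 52.2-fold.

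Integrins, the receptors for this matrix, were lower in 16 and higher in 5 of 21 (3 higher without LAMP2A+DM-αKG replicate 1). Itgb1, the beta chain most of them share, went from 802, 802 and 796 to 231, 231 and 222 CPM and Itga3 fell 3.50-fold. Itgb7, a beta chain known from lymphocytes, rose from 2.46, 2.55 and 3.25 to 26.8, 25.9 and 26.5 CPM. Junction and transition genes were lower in 17 of 18, including both N-cadherin (Cdh2, 22.4-fold) and the repressor gene Zeb2 (30.9-fold), and the intermediate filament gene Vim fell 2.34-fold. The epithelial splicing factor gene Esrp2 rose slightly (0.35).

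**Figure D4:**
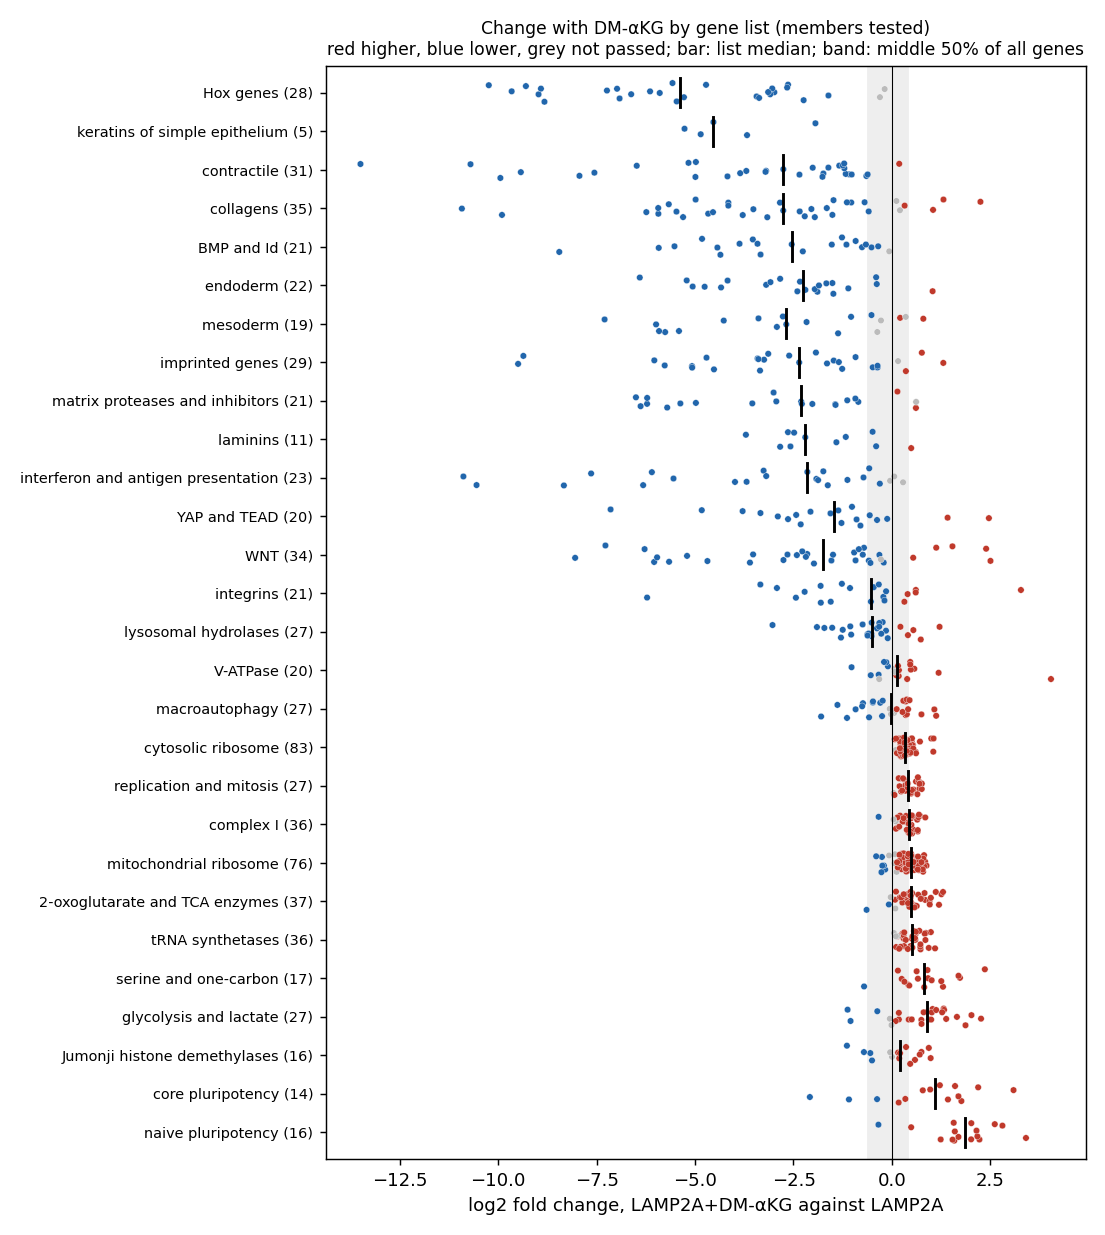
Log2 fold change with DM-αKG (horizontal axis) of the tested members of 28 gene lists (rows, number tested in brackets), each point a gene, coloured by whether it passed at an adjusted p of 0.05. Medians (black bars) run from -5.37 for Hox genes to 1.85 for naive pluripotency, and the grey band marks the middle 50% of all genes tested, -0.61 to 0.40.

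Signalling genes mostly followed the lineage genes. BMP ligands, receptors and Id targets were lower in 20 of 21 (95.2%, beside 42.1% of all genes), with none higher. Id3, an inhibitor of differentiation factor that BMP induces, went from 289, 286 and 294 to 19.5, 20.1 and 19.8 CPM, and Id2 fell 10.7-fold. TGF-beta genes were lower in 9 of 10 (90.0%). Tgfb2, a ligand, went from 193, 187 and 186 to 0.926, 0.770 and 0.798 CPM, the receptor genes Tgfbr1 and Tgfbr2 fell by 0.71 and 0.78 on the log2 scale, and Ltbp3, which stores the latent ligand, rose (0.78). YAP and TEAD genes were lower in 18 of 20, with the matricellular targets Cyr61 from 292, 293 and 296 to 11.0, 9.82 and 10.2 CPM and Ctgf 4.98-fold lower. The TEAD letters CATTCC, on either strand of the 250 bases before the start, were found in 12 of 17 of these genes (70.6%) and in 14.4% of all genes. These genes were listed for their ties to YAP and TEAD, and whether the letters went with the fall was not tested.

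WNT genes were lower in 28 and higher in 5 of 34 (82.4% and 14.7%, beside 42.1% and 41.1% of all genes). The receptor gene Fzd2 fell 36.8-fold and the inhibitor gene Dkk1 155-fold, while another receptor gene, Fzd5, rose from 41.8, 41.5 and 41.5 to 217, 218 and 219 CPM and the inhibitor gene Sfrp1 2.18-fold. Of 17 Nodal and activin genes 7 were higher and 10 lower (41.2% and 58.8%), the share higher being near that of all genes. The ligand gene Gdf3 rose 2.42-fold and Fst, the activin inhibitor follistatin, fell 10.8-fold. In the LIF pathway 6 genes were higher and 8 lower of 15, 4 and 3 of them past the 2-fold test (median log2 fold change -0.43). The members with the smallest p were among those that rose. Socs3, its feedback inhibitor, went from 24.0, 24.5 and 25.7 to 204, 203 and 199 CPM and Tfcp2l1, a target of STAT3, from 167 ± 1.23 to 750.2 ± 12.4 CPM. FGF and ERK genes were higher in 6 and lower in 14 of 23 (26.1% and 60.9%). Fgf4, the ligand of ES cells, and the feedback gene Spry4 rose 4.56-fold and 3.79-fold, and Phlda1 fell 9.96-fold. Retinoic acid genes were lower in 13 of 17 (76.5%). The binding protein genes Crabp1 and Crabp2 fell 6.13-fold and 48.8-fold, and the receptor gene Rarg and the target gene Stra8 rose 2.81-fold and 5.10-fold.

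Among lysosomal genes, hydrolases and membrane proteins were lower in 22 of 27, 81.5% beside 42.1% of all genes. Past the 2-fold test were 6, or 22.2% beside 15.0%. The cathepsin gene Ctsl went from 437, 436 and 443 to 187, 184 and 182 CPM, the tetraspanin gene Cd63 fell 2.86-fold, and the galactosidase gene Glb1 rose 2.31-fold. The transcription factors of lysosomal genes moved apart. Tfeb rose from 9.30, 9.82 and 10.5 to 37.8, 38.1 and 35.7 CPM and Mitf from 5.48 ± 0.293 to 17.4 ± 0.960 CPM, while Tfe3 fell slightly and Tfec fell from 5.58 ± 0.0168 to 0.187 ± 0.0164 CPM. V-ATPase subunits, which acidify the lysosome, were higher in 11 and lower in 6 of 20 (55.0% and 30.0%). Atp6v0a1 fell 2.04-fold and Atp6v0a4, another isoform of the same subunit, rose from 0.304, 0.404 and 0.485 to 6.39, 6.43 and 6.65 CPM. Of 27 macroautophagy genes 12 were higher and 12 lower, 44.4% each, near the 41.1% and 42.1% of all genes. The kinase gene Ulk1 rose 2.11-fold and its relative Ulk2 fell 3.48-fold, with the cargo receptor gene Sqstm1 lower by 1.90-fold.

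Of 16 genes of chaperone-mediated autophagy, Lamp2 among them, 8 were higher and 6 lower, near the shares of all genes (41.1% and 42.1%). Hsp90aa1, a co-chaperone of the pathway, was the single higher member past the 2-fold test, 2.17-fold. Besides Lamp2, the kinase gene Akt1 fell over 2-fold, from 166, 164 and 167 to 54.0, 53.5 and 54.7 CPM, and Lamp1 fell by 0.62 on the log2 scale. Heat shock proteins and chaperonins were higher in 18 of 24, with the mitochondrial chaperone genes Hspa9 and Hspd1 up 1.71-fold and 1.52-fold. Proteasome subunits were higher in 29 of 38 (median 0.24), and Psmb8, a subunit of the immunoproteasome, fell from 1.17 ± 0.278 to 0.0835 ± 0.0832 CPM.

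Regulators of the G1 phase were lower in 9 and higher in 3 of 15. Ccnd2, a D-type cyclin, went from 56.5, 57.8 and 57.3 to 1.43, 0.732 and 1.23 CPM, whereas Ccnd3 and Ccne1 rose 1.96-fold and 1.88-fold. The CDK inhibitor gene Cdkn1c, which is imprinted, fell 10.2-fold and Cdkn2b 27.8-fold. Among p53 targets 13 were lower and 5 higher of 20. Cdkn1a (p21) went from 112, 115 and 117 to 47.7, 45.8 and 47.3 CPM and the pro-apoptotic gene Bbc3 fell 2.68-fold, while Tigar rose 2.29-fold and the cytokine gene Gdf15 4.58-fold. In the Myc network Myc fell from 63.4, 63.5 and 59.2 to 17.6, 17.2 and 16.4 CPM and Mycl by 1.43 on the log2 scale. Mycn, the family member typical of ES cells, did not pass (log2 fold change 0.05, SE 0.0303, adjusted p = 0.0952), except when the fit held the 6 compared libraries alone (0.056, adjusted p = 0.00859). Their dimer partner Max did not pass either (0.02, adjusted p = 0.659). The antagonist gene Mxd4 fell 6.48-fold, and Mxd3, which acts in S phase, rose 1.63-fold.

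Imprinted genes are read from 1 parental copy and are marked by DNA methylation. Of 29 tested 25 were lower (86.2%, beside 42.1% of all genes), 20 past the 2-fold test (69.0%, beside 15.0%). Igf2, a fetal growth factor (chromosome 7, from 142650768), had 1752, 1755 and 1780.1 CPM in LAMP2A and 2.57, 2.23 and 2.53 CPM with DM-αKG, against 0.535, 0.592 and 1.00 CPM in VT. Peg3 went from 1678, 1668 and 1645 to 31.4, 30.2 and 30.0 CPM, and Peg10 fell 10.6-fold. Phlda2, a maternally expressed restrainer of placental growth, rose 2.47-fold. Germline genes kept silent by DNA methylation in somatic cells had 8 members higher and 9 lower of 20, shares near the 41.1% and 42.1% of all genes. Dazl rose 2.04-fold, and Tdrd1 and Sycp2 fell 3.84-fold and 3.05-fold. Polycomb genes and histone methyltransferases were higher in 18 and lower in 11 of 31 (58.1% and 35.5%, beside 41.1% and 42.1% of all genes). Mtf2, a PRC2 accessory protein, rose 2.32-fold, and Rbbp7, a histone chaperone of several repressor complexes, fell from 1256 ± 10.3 to 422 ± 3.85 CPM.

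Interferon response and antigen presentation genes were lower in 20 of 23 (87.0%, beside 42.1% of all genes), with none higher. Gbp2 had 1 read in VT, 4578 in LAMP2A and 12 with DM-αKG. Such members passed the filter only through LAMP2A and could only be lower, so for them the count supports nothing more. B2m, the light chain of MHC class I, went from 61.8, 59.6 and 61.2 to 6.35, 6.78 and 5.99 CPM, against 8.06, 8.43 and 8.26 CPM in VT. Gbp2, a guanylate-binding protein, fell from 49.8 ± 1.03 to 0.151 ± 0.0365 CPM and the RNA sensor gene Ddx58 3.35-fold.

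The authors' deposited table of the same comparison, made with DESeq2, lists 16289 genes and calls 5821 higher and 6219 lower with DM-αKG. Of the genes called both in the authors' deposited table and here, 11509, all had the same sign.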

How the data were processed

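The 9 mRNA libraries were prepared using a stranded Illumina TruSeq kit, per the labels' protocols. What the authors deposited are unnormalized read counts for each gene symbol. The submitters' processing notes name STAR 2.7.1, HTSeq 0.11.2 and build mm10. How strand was handled in counting, and with which annotation, is not given in the sources used here. Values of overlapping and antisense genes are therefore less certain. The authors also deposited a DESeq2 table that holds, per the file headers, a mean signal, log2 fold changes, a score and p-values. Only its log2 signs and adjusted p-values were used.

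The table lists 24421 genes, and every row names a gene. A single edgeR 4.0.16 model (R 4.3.3) took the counts of all 9 libraries, after filterByExpr and TMM, with robust glmQLFit and 6 residual degrees of freedom. Tests were glmQLFTest and, for changes over 2-fold, glmTreat against a log2 fold change of 1, with Benjamini-Hochberg adjustment over 14513 genes at 0.05. SE was obtained as |log2 fold change| divided by √F. Groups and replicate numbers came from the titles. The fits were tested on simulated data.

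The 65 gene lists, the members and the tests were chosen with earlier results of these data known, and 95 genes are in more than 1 list. Of the listed names 2 were matched through another symbol. Genes were named by a rule: Lamp2; the 10 highest and 10 lowest log2 fold changes past the 2-fold test at a mean of at least 5 CPM without overlap, leaving out predicted and clone symbols; the 10 with the most CPM in each direction; of each list the 3 smallest p-values and up to 3 members against its main direction; and all members of lists of up to 12 genes. Examples printed were taken from these, except Pgk1 and the genes with a CArG box, chosen after their values were seen. Some genes that meet the rule are not reported here. Where a group had 1 to 3 reads, the ratio is given with an exact 95% counting interval, which covers counting error only.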

Additional observations from a re-analysis of the deposited data

How the results depend on the processing

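Counts over all genes tested stayed within 1.5 times under every alternative except a filter at a mean of at least 5 CPM, with 10772 genes tested in place of 14513, where 478 genes were over 2-fold higher in place of 850 and 1184 over 2-fold lower in place of 2170. Leaving out 1 library at a time gave 5797 to 5880 genes higher and 5953 to 6017 lower, and 813 to 847 and 2143 to 2175 over 2-fold. The 2 libraries left in a group are then taken to vary like the other groups. Of the counts over single lists under all alternatives, 41 moved by over 1.5 times and 1779 did not, and most of the 41 fell under the 5 CPM filter, which removes list members. The replicate numbers do not pair the libraries: correlations of same-numbered deviations were -0.0386, 0.0175 and 1.03e-05, and with a replicate block 846 and 2162 genes were over 2-fold higher and lower. Under limma voom 753 and 2032 genes were over 2-fold, and under DESeq2 651 and 1877. Of the single genes named, Dnmt3l and Max, which did not pass at 0.02 and 0.02, changed sign to -0.015 and -0.022 under the 5 CPM filter, and Dnmt3l ranged from -0.006 to 0.042 when 1 library was left out. No other named gene changed direction under any alternative run, and the calls that changed, of Dlst, Dnmt1 and Mycn, are given above. Strand and near-identical copies could not be checked from counts per gene, and Lamp2 and DM-αKG moved together in every library.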
